A study of Mus musculus with 12 samples.

Results

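The cyclins A, B and E and the enzymes that gate entry into mitosis are represented by 10 genes of the nCounter mouse PanCancer pathways panel, which counts RNA molecules with color-coded probes and without amplification. These genes are *Ccne1*, *Ccne2*, *Ccna2*, *Ccnb1*, *Cdc25a*, *Cdc25b*, *Cdc25c*, *Wee1*, *Pkmyt1* and *Ttk*. They were picked by name for their place in the cell cycle, without a threshold on their values, and all 10 are among the 770 genes of the panel. Their signal was measured in 4 control eyes, 3 Shh-MBs and 5 *RBS* lesions, with each sample taken from a different animal. *RBS* lesions are ocular growths of E18.5 embryos with the genotype *Rax-creERT2::Ctnnb1(ex3)Fl/+SmoM2Fl/+*, which were exposed to tamoxifen on E8.5. In these embryos a tamoxifen-inducible Cre under the *Rax* promoter, active in retinal precursor cells, switches on a stabilized beta-catenin and an active form of Smo. Control eyes are from E18.5 embryos with both floxed alleles (*Ctnnb1(ex3)Fl/+SmoM2Fl/+*) but no Cre, and the sample labels do not give whether these had tamoxifen. Shh-MBs are hindbrain tumors of *hGFAP-cre::SmoM2Fl/+* mice at 14 days of age, in which a Cre under the human *GFAP* promoter switches on the active Smo alone. Shh-MBs therefore differ from both kinds of eye tissue in organ, age, Cre driver and the *Ctnnb1* allele, and these cannot be told apart. Tamoxifen is given for the *RBS* lesions only, and between lesions and Shh-MBs it cannot be told apart from these either.

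Cyclins are the regulatory partners of cyclin-dependent kinases. Cyclin E drives cells from G1 into S phase, cyclin A acts through S phase and G2, and cyclin B with its kinase Cdk1 starts mitosis. The kinases Wee1 and Pkmyt1 hold the cyclin-dependent kinases inactive by phosphorylation, and the Cdc25 phosphatases remove these phosphates. Ttk, also named Mps1, is a kinase of the spindle assembly checkpoint, which delays anaphase until all chromosomes are attached. In the developing retina and in the external granule layer of the cerebellum, precursor cells divide rapidly and express these genes until they leave the cell cycle.

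The deposited values were read as a normalized signal on a linear scale, and differences are given on the log2 scale of signal plus 1. The depth was between 335392 and 716684 counts above background per sample and lowest in RBS 1, and one count was worth between 0.810 and 1.64 units of signal. RBS 5 was the lowest lesion for 5 of the 10 genes, RBS 4 for 3 and RBS 2 for 2. None of the 10 listed eye and retina markers is on the panel, so the eye label could not be checked against them. Of 8 listed markers of cerebellar granule cell precursors only *Zic2* is on the panel, with a signal between 924 and 1142 in Shh-MBs and between 223 and 385 in the eye samples. Tissue was bulk, so fewer cells that express a gene and less RNA of that gene per cell cannot be told apart.

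*RBS* lesions had less signal than control eyes for most of these genes. Of the 10 genes, 7 were lower at an adjusted *p* under 0.05 (limma, two-sided, adjusted over all genes) and none was higher. Over the whole panel 18.2% of genes were lower past this threshold, 33% were higher and 51.2% differed in either direction. The 7 genes were *Ccna2*, *Cdc25c*, *Ttk*, *Ccne2*, *Wee1*, *Pkmyt1* and *Cdc25b*, and in each of them every lesion was below every control eye, as was the case for 15.8% of all genes. The median log2 difference of the 10 genes was -0.87, beside a median of 0.17 over all genes. *Ccne1*, *Ccnb1* and *Cdc25a* did not pass the threshold. With the methods' *t*-test and step-down Bonferroni adjustment, the calls of *Ccne2* (adjusted *p* = 0.645), *Cdc25c* (adjusted *p* = 0.097) and *Pkmyt1* (adjusted *p* = 1) were lost. Of 8 neuron markers, 7 were higher in the lesions past the threshold and none was lower. Their summed signal, most of it from *Stmn1*, was between 30327 and 38017 in *RBS* lesions and between 17746 and 22474 in control eyes. Their part in the lower signal of the 10 genes was not tested.

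**Figure D1:**
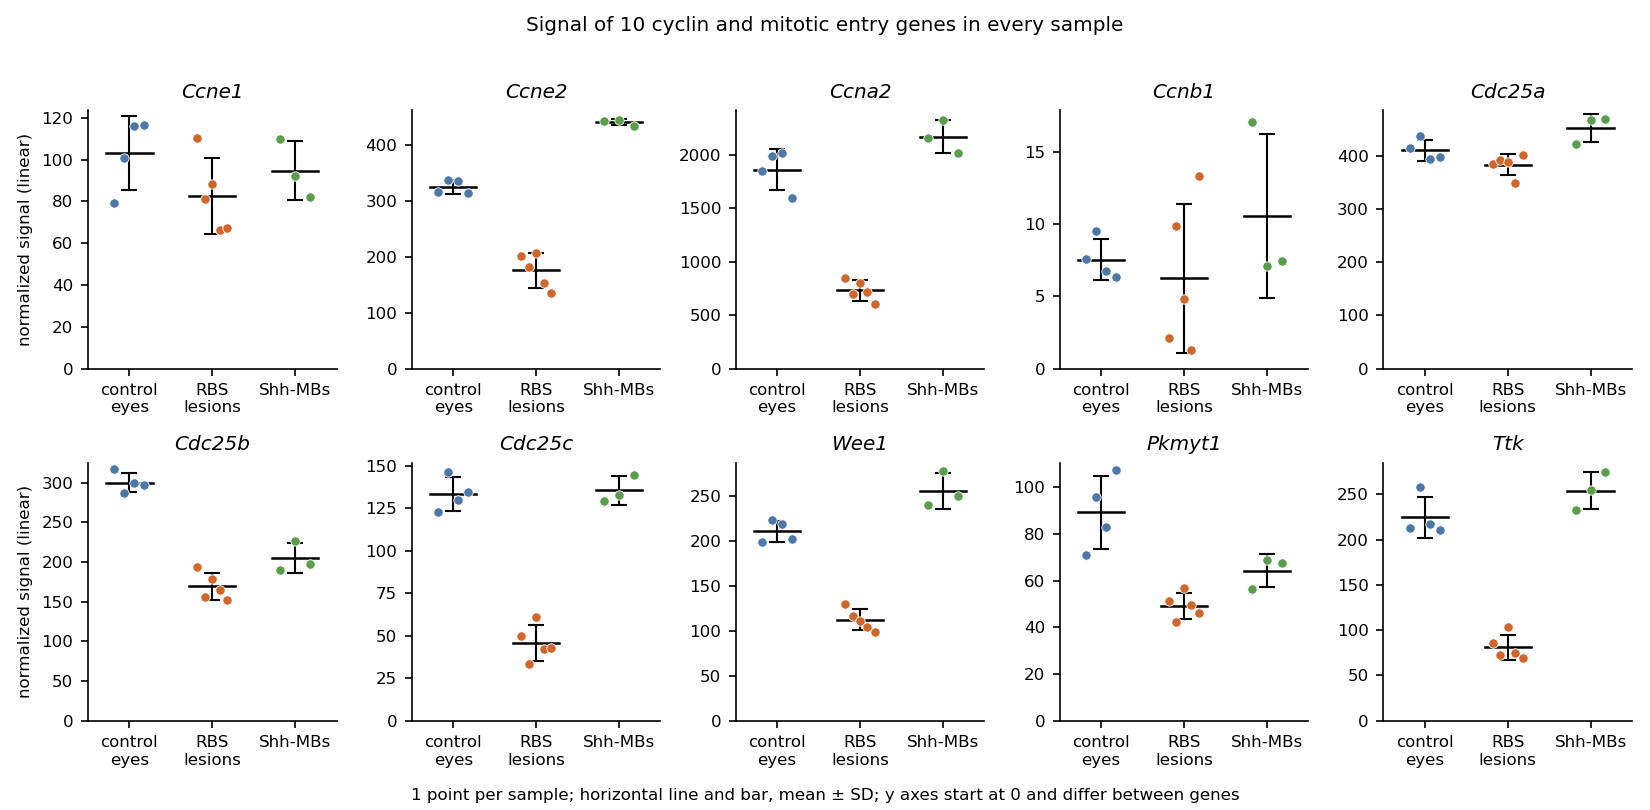
Normalized signal on a linear axis (signal units, starting at 0) of the 10 genes, by group, with 1 point per sample and the mean ± SD. In *Ccne2*, *Ccna2*, *Cdc25c*, *Wee1* and *Ttk* the 5 lesions lie below all other samples, whereas in *Ccne1*, *Ccnb1* and *Cdc25a* they overlap with control eyes.

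Among the cyclins that act early, the E cyclins, *Ccne2* and *Ccne1* differed in their pattern. *Ccne2* had a signal of 202, 181, 207, 153 and 136 in the lesions RBS 1 to RBS 5, of 316, 337, 336 and 314 in the control eyes and of 444, 445 and 435 in the Shh-MBs. The 3 groups did not overlap, with lesions lowest and Shh-MBs highest. Compared to control eyes, *Ccne2* in *RBS* lesions was 1.87-fold lower (log2 -0.90, standard error 0.135, adjusted *p* = 0.000522, limma). Compared to Shh-MBs the difference was -1.34 (standard error 0.157, adjusted *p* = 0.00015, limma). *Ccne1*, the other gene for cyclin E, had a signal of 110.4, 81.1, 88.5, 66.3 and 67.3 in the lesions, of 79.1, 101, 116 and 117 in the control eyes and of 110.0, 92.3 and 82.1 in the Shh-MBs. All 3 groups overlapped, and RBS 1 was above the highest tumor. Its log2 difference between lesions and control eyes was -0.32 (95% confidence interval -0.73 to 0.086, adjusted *p* = 0.171, limma). With each sample centred on its median it was -0.50 (adjusted *p* = 0.0491, limma), and after quantile normalization -0.52 (adjusted *p* = 0.0399, limma), both past the threshold.

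*Ccna2*, which encodes the cyclin A of dividing somatic cells, had a signal of 851, 693, 804, 716 and 601 in the lesions. In the control eyes it was 1845, 1989, 2022 and 1595, and in the Shh-MBs 2157, 2331 and 2021. Lesions lay below all other samples, and the highest control eye was slightly above the lowest tumor. With a mean of 733 ± 97.6 (SD, *n* = 5) against 1863 ± 194 (SD, *n* = 4), *Ccna2* was 2.55-fold lower in lesions than in control eyes (log2 difference -1.35, standard error 0.125, adjusted *p* = 3.63e-05, limma). An exact permutation test gave *p* = 0.00794, the smallest that 5 against 4 samples allow. Only 4.68% of all genes had a log2 difference as low or lower. Compared to Shh-MBs *Ccna2* was 2.97-fold lower (log2 difference -1.57, adjusted *p* = 2.9e-05, limma), with a log2 difference from -2.42 to -1.47 across 19 alternatives.

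*Ccnb1*, one of the genes for cyclin B, was close to background in all samples. Its signal was 2.10, 9.82, 4.78, 1.26 and 13.3 in the lesions, 7.57, 9.48, 6.72 and 6.34 in the control eyes and 17.1, 7.10 and 7.42 in the Shh-MBs. These values correspond to between 1.04 and 15.2 counts above background, and the groups overlapped. In the same samples *Ccna2* had between 518 and 2488 counts, and the reason for the low counts of *Ccnb1* was not tested. No change of *Ccnb1* was detected at these few counts. The log2 difference between lesions and control eyes was -0.56, with a 95% confidence interval from -1.74 to 0.63 (adjusted *p* = 0.42, limma). It ranged from -0.88 to -0.22 when 1 sample was left out. Of 4 further listed cyclins, 3 are on the panel, among them *Ccno*, the gene for cyclin O. *Ccna1*, the cyclin A known from the germ line, had a mean signal of 7.49 ± 2.57 (SD, *n* = 5) in lesions, 5.21 ± 3.25 (SD, *n* = 4) in control eyes and 22.9 ± 8.003 (SD, *n* = 3) in Shh-MBs, where it was higher than in control eyes (log2 difference 2.10, adjusted *p* = 0.0223, limma). *Ccnb3* did not rise above the lowest value of the sample in 4 lesions, 3 control eyes and 2 Shh-MBs, and *Ccno* had a mean signal between 9.56 and 10.8 per group.

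The Cdc25 phosphatases did not change as a group. *Cdc25c*, the member classically tied to the activation of Cdk1 at mitotic entry, had a signal of 49.7, 33.3, 61.2, 42.2 and 42.6 in the lesions. It was 123, 146, 129.9 and 134 in the control eyes and 129, 133 and 145 in the Shh-MBs. Control eyes and tumors overlapped, with a log2 difference of 0.024 (95% confidence interval -0.22 to 0.27), and all lesions lay far below both. The log2 difference between lesions and control eyes was -1.55 (standard error 0.162, adjusted *p* = 7.59e-05, limma), the largest fall among the 10 genes and the 25th lowest value of the panel. *Cdc25b*, which acts at the centrosome before mitosis, had a signal of 194, 156, 179, 165 and 152 in the lesions, 317, 287, 299.9 and 297 in the control eyes and 191, 226 and 197 in the Shh-MBs. Here both the lesions and the tumors were below all control eyes, and they overlapped with each other. Compared to control eyes, *Cdc25b* was lower by -0.83 in lesions (standard error 0.0949, adjusted *p* = 0.000121, limma) and by -0.55 in Shh-MBs (standard error 0.1003, adjusted *p* = 0.0045, limma). Both comparisons share the 4 control eyes, and the second did not hold under other scalings, with a log2 difference of 0.11 after median centring.

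*Cdc25a*, which acts already at the start of S phase, was nearly level between lesions and control eyes under the deposited scaling. Its signal was 386, 392, 388, 349.6 and 403 in the lesions, 415, 438, 394 and 399 in the control eyes and 424, 468 and 469.7 in the Shh-MBs. Lesions and control eyes overlapped, and all lesions were below all tumors. The log2 difference between lesions and control eyes was -0.10 (95% confidence interval -0.28 to 0.076, adjusted *p* = 0.324, limma). Median centring gave -0.28 (adjusted *p* = 0.0418, limma). Quantile normalization gave -0.35 (adjusted *p* = 0.00199, limma), so the call depended on the scaling.

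Of the inhibitory kinases, *Wee1* had a signal of 130.1, 117, 111, 105 and 99.3 in the lesions, 199, 223, 219 and 202 in the control eyes and 239.9, 279 and 250.02 in the Shh-MBs. The 3 groups did not overlap, in the same order as for *Ccne2*. *Wee1* was 1.87-fold lower in lesions than in control eyes (log2 -0.91, standard error 0.0985, adjusted *p* = 9.4e-05, limma). *Pkmyt1*, the related kinase bound to intracellular membranes, had a signal of 51.3, 42.2, 56.8, 49.5 and 46.2 in the lesions, 70.9, 95.6, 83.2 and 107 in the control eyes and 56.3, 68.9 and 67.6 in the Shh-MBs. Control eyes were highest, and lesions overlapped with tumors only through RBS 3 and Shh-MB 1. The log2 difference between lesions and control eyes was -0.84 (standard error 0.138, adjusted *p* = 0.000907, limma).

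*Ttk* had a signal of 85.8, 72.2, 104, 74.8 and 69.1 in the lesions, 213, 258, 217 and 210.5 in the control eyes and 233, 254 and 275 in the Shh-MBs. All lesions were below all other samples, and control eyes and tumors overlapped. *Ttk* was 2.77-fold lower in lesions than in control eyes (log2 difference -1.47, standard error 0.135, adjusted *p* = 3.44e-05, limma) and 3.14-fold lower than in Shh-MBs (log2 difference -1.65, standard error 0.152, adjusted *p* = 4.04e-05, limma). The value of control 2 stood apart from the other control eyes, and without this eye the difference to control eyes was -1.40.

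A promoter sequence (RefSeq, build GRCm38.p6) was at hand for 5 of the 10 genes. Those of *Ttk* and *Cdc25a* are shown because these genes had the second largest and the smallest difference between lesions and control eyes. In the 250 bases before the start of *Ttk* at chr9:83834439-83834688 and before the start of *Cdc25a* at chr9:109875329-109875578, both on the forward strand, capitals mark CCAAT (or ATTGG, its reverse complement) and, in *Cdc25a*, the E2F motif TTTNNCGC.
Ttk: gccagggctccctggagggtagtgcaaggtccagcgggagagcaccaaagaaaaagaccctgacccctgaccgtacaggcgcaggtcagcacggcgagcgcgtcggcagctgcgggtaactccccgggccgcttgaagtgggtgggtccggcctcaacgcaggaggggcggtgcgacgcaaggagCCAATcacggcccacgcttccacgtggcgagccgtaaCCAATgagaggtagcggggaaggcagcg
Cdc25a: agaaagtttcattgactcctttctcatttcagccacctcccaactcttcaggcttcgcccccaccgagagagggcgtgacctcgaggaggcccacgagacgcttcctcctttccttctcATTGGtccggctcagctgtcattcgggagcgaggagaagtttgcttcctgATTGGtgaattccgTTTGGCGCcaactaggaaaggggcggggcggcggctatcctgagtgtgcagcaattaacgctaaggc
The 30 bases around the start of *Ttk* at chr9:83834679-83834708 hold TTCAAA in capitals, the reverse complement of TTTGAA, which is the cell cycle homology region known from promoters of mitotic genes.
Ttk start: gaaggcagcggggaaatTTCAAAcgtgttt
Each promoter window of 300 bases was searched on both strands for these 3 motifs. The CCAAT motif was found 2 times each in *Ttk*, *Cdc25a* and *Ccnb1*, 1 time in *Cdc25b* and not in *Ccne1*, and 37.4% of all promoters in the table hold it. TTTGAA was found in *Ttk* alone of the 5 genes (17.9% of all promoters), and TTTNNCGC in *Cdc25a* alone (5.17% of all promoters). These matches describe the letters of the sequence and were not tested for binding.

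In comparison to Shh-MBs, 6 of the 10 genes were lower in *RBS* lesions past the threshold (limma) and none was higher. Over all genes 12.7% were lower, 48.1% higher and 60.8% different in either direction, and the median log2 difference was 0.53 over all genes and -1.04 over the 10 genes. As deposited, differences were largest for *Ttk* (-1.65), *Ccna2* (-1.57) and *Cdc25c* (-1.57, standard error 0.186), followed by *Ccne2* (-1.34) and *Wee1* (-1.18, standard error 0.118). Across the 19 alternatives they reached -2.49 for *Ttk*, -2.42 for *Ccna2*, -2.53 for *Cdc25c*, -2.19 for *Ccne2* and -2.03 for *Wee1*. In these 5 genes and in *Cdc25a* every lesion was below every tumor, as in 12.9% of all genes. With the methods' *t*-test and step-down Bonferroni adjustment the calls of *Ccne2* (adjusted *p* = 0.196) and *Cdc25c* (adjusted *p* = 0.105) were lost. The sixth gene was *Pkmyt1* with -0.38 (adjusted *p* = 0.0318, limma), a call that was lost in 9 of 19 alternatives. It was lost without RBS 2 (adjusted *p* = 0.0665, limma), RBS 4 (0.0525), RBS 5 (0.0657), Shh-MB 2 (0.113) or Shh-MB 3 (0.1003). *Cdc25a* (-0.24, adjusted *p* = 0.0538), *Cdc25b* (-0.27, adjusted *p* = 0.076), *Ccne1* (-0.21, adjusted *p* = 0.375) and *Ccnb1* (-0.90, adjusted *p* = 0.258) did not pass. When 1 sample was left out, *Ccne1* ranged from -0.32 to -0.098 and *Ccnb1* from -1.23 to -0.52. *Cdc25a* passed in 10 of 19 alternatives, among them without Shh-MB 1 (adjusted *p* = 0.041, limma), and *Cdc25b* in 5, among them without RBS 1 (adjusted *p* = 0.0324, limma). After median centring or quantile normalization all 10 genes passed as lower. The 12.7% of all genes that were lower belongs to the deposited scaling, and its counterpart under these scalings is not given. Across the 19 alternatives up to 500 genes of the panel differed in either direction, against 468 as deposited. The median difference over all genes in this comparison was -0.32 after median centring, and among genes that differed, higher ones made up 36.2% in place of 79.1%.

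Between Shh-MBs and control eyes these genes were closer. Only *Ccne2* was higher in Shh-MBs past the threshold, 1.35-fold (log2 0.44, standard error 0.0836, adjusted *p* = 0.0057, limma), and only *Cdc25b* was lower. Both calls were lost with the replicate block (adjusted *p* = 0.0668 for *Ccne2* and 0.0598 for *Cdc25b*, limma) and with the step-down Bonferroni adjustment (0.114 for *Ccne2* and 1 for *Cdc25b*). In the panel 9.61% of genes were higher, 31.4% lower and 41% different in either direction, and the median was -0.22 over all genes and 0.16 over the 10 genes. *Wee1* (0.28, adjusted *p* = 0.0668, limma) and *Pkmyt1* (-0.46, adjusted *p* = 0.0686, limma) did not pass the threshold in limma, although their groups did not overlap, as was also so for *Ccne2* and *Cdc25b* and for 48.2% of all genes. *Wee1* passed in 7 of 18 alternatives, with an adjusted *p* between 0.00366 and 0.0496 there, and *Pkmyt1* in 3, among them without control 1 (-0.56, adjusted *p* = 0.0338, limma). *Ccna2* (0.22, 95% confidence interval -0.064 to 0.51) and *Ttk* (0.18, 95% confidence interval -0.0997 to 0.46) were within the spread between samples. The scaling mattered most here. With median centring 8 genes were higher past the threshold and none lower, and among genes that differed, higher ones made up 69.1% in place of 23.4%. The 9.61% of all genes that were higher belongs to the deposited scaling, and its counterpart under median centring is not given. Up to 450 genes of the panel differed in either direction across the 18 alternatives, against 316 as deposited.

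**Figure D2:**
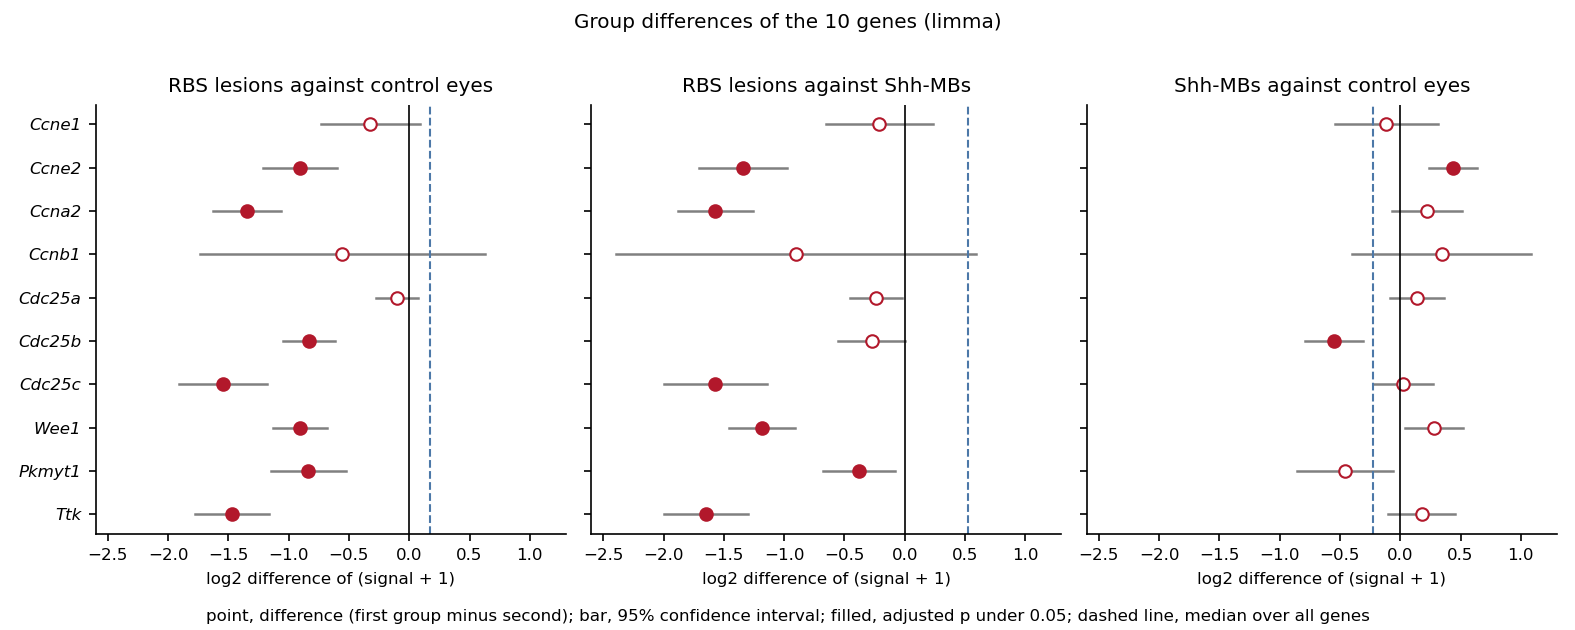
Log2 difference of signal plus 1 (first group minus second, horizontal axis) for the 10 genes in 3 comparisons, as points with 95% confidence intervals. Filled points passed an adjusted *p* of 0.05 in limma, and the dashed line is the median over all genes (0.17, 0.53 and -0.22). Lesions were lower than control eyes in 7 genes and lower than Shh-MBs in 6.

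**Figure D3:**
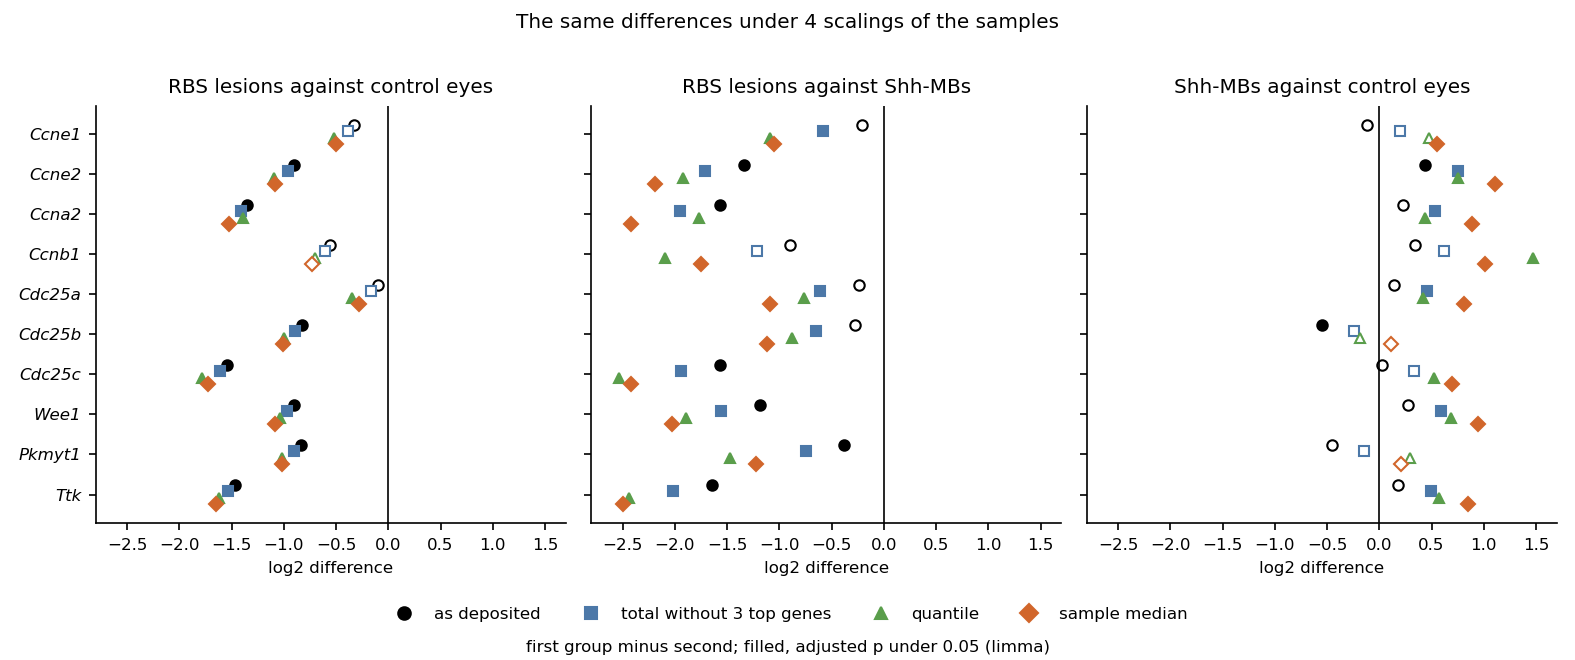
The same log2 differences (horizontal axis) for the 10 genes under the deposited scaling, the summed signal of all but the 3 most abundant genes, quantile normalization and centring on the sample median, with filled symbols past an adjusted *p* of 0.05 in limma. All 10 genes stay below 0 in both comparisons of *RBS* lesions under these 4 scalings, while between Shh-MBs and control eyes *Ccne1*, *Cdc25b* and *Pkmyt1* change sign.

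Ratios of 2 genes within a sample hardly depend on the factor by which samples were scaled to each other. In 8 such ratios, 5 differed between *RBS* lesions and control eyes (exact permutation test, two-sided, adjusted over the 8 ratios), each without overlap of the groups. The 8 ratios were chosen with earlier results of these data known. The share of all gene pairs that differ was not computed for any comparison, while 51.2% of single genes differed in this one (limma). Ratios within the Cdc25 family are formed from the same genes and are not independent. A ratio here is compared between groups, and its size is not a comparison of the levels of 2 genes. *Ccne2* relative to *Ccne1* had a log2 ratio of 0.87, 1.15, 1.21, 1.19 and 1.004 in the lesions and of 1.98, 1.73, 1.52 and 1.42 in control eyes (difference -0.58, adjusted *p* = 0.0159, exact permutation). In the Shh-MBs it was 2.00, 2.26 and 2.39, so lesions were lowest and tumors highest. *Ccne1* relative to *Ccna2* was higher in lesions by 1.02 (adjusted *p* = 0.0159, exact permutation). Within the Cdc25 family, *Cdc25a* relative to *Cdc25c* was between 2.65 and 3.52 in lesions and between 1.56 and 1.75 in control eyes. That difference of 1.44, a 2.72-fold shift toward *Cdc25a*, had an adjusted *p* of 0.0159 (exact permutation). *Cdc25a* relative to *Cdc25b* was higher by 0.73 (adjusted *p* = 0.0159, exact permutation), and *Cdc25c* relative to *Cdc25b* was lower by -0.72 (adjusted *p* = 0.0254, exact permutation).

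The ratios between the opposing enzymes showed another pattern. *Cdc25b* relative to *Wee1* was between 0.41 and 0.68 in the lesions and between 0.36 and 0.67 in the control eyes, which overlapped (difference 0.077, adjusted *p* = 0.408, exact permutation). In the Shh-MBs it was between -0.34 and -0.30, below every eye sample. The difference between lesions and Shh-MBs was 0.91 (adjusted *p* = 0.0238, exact permutation). *Pkmyt1* relative to *Wee1* differed by 0.068 between lesions and control eyes (adjusted *p* = 0.635, exact permutation) and by 0.80 between lesions and Shh-MBs (adjusted *p* = 0.0238, exact permutation). *Ccna2* relative to *Ccnb1* differed by -0.79 between lesions and control eyes (adjusted *p* = 0.408, exact permutation), from -1.12 to -0.40 when 1 sample was left out, and passed with a pseudocount of 5 (adjusted *p* = 0.0423, exact permutation). In all, 6 of the 8 ratios differed between lesions and Shh-MBs, and none passed when any 1 of the 3 Shh-MBs was left out (adjusted *p* = 0.0635, exact permutation), although these 6 kept their direction. The exceptions were *Ccna2* to *Ccnb1*, which rests on the few counts of *Ccnb1*, and *Cdc25a* to *Cdc25b* (0.034, adjusted *p* = 0.75, exact permutation). Between Shh-MBs and control eyes none of the 8 passed the exact permutation test after adjustment. Before adjustment 4 had an exact permutation *p* of 0.0286, the smallest that 3 against 4 samples allow, and their adjusted *p* was 0.0571.

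**Figure D4:**
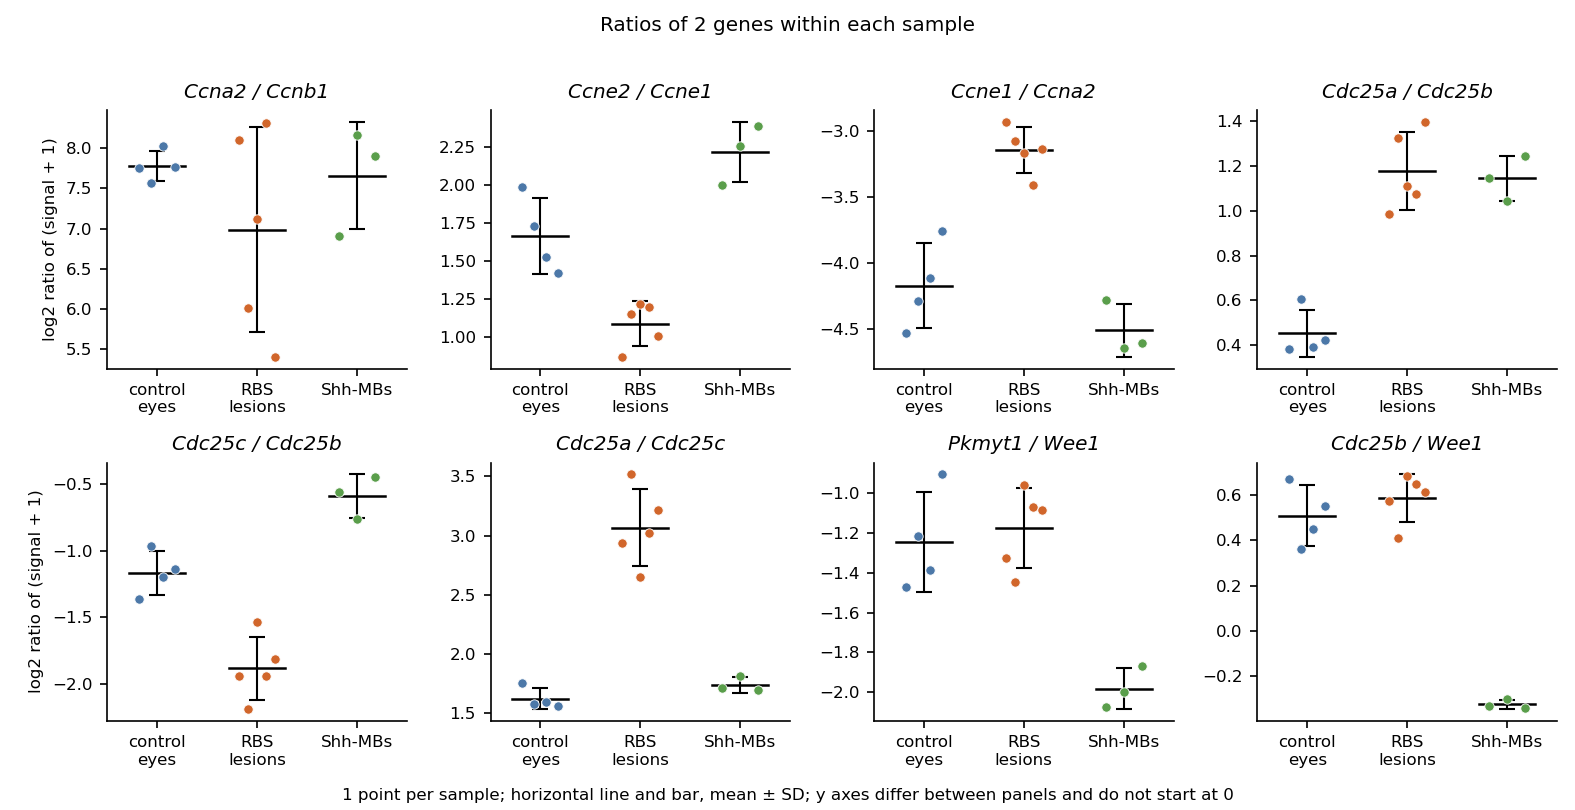
Log2 ratio of signal plus 1 of 2 genes within each sample (vertical axis) in control eyes, *RBS* lesions and Shh-MBs, with 1 point per sample and the mean ± SD. In the ratio of *Cdc25a* to *Cdc25c* the lesions (2.65 to 3.52) lie above all other samples, and in the ratio of *Cdc25b* to *Wee1* the Shh-MBs (-0.34 to -0.30) lie below all eyes.

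Across the 12 samples, *Ccna2*, *Ccne2*, *Cdc25c*, *Ttk* and *Wee1* were the most alike. Over their 10 pairs Pearson *r* of the log2 values, group means included, was between 0.93 and 0.99 with a median of 0.97, and after the group means were removed it was between 0.17 and 0.86 with a median of 0.67. Over the remaining 35 pairs of the 10 genes the median was 0.57, and 0.27 after the group means were removed. These 5 genes were put together after their values were seen, and the 12 points share the 3 groups and the scaling of each sample. The panel genes most like each of the 10 by Pearson *r* differed. *Pcna*, the sliding clamp of DNA polymerase, came first for *Ccna2* (0.99), *Ccne2* (0.98) and *Wee1* (0.99). The flap endonuclease gene *Fen1* came first for *Ttk* (0.99), and *Brca1*, a gene of homologous recombination, for *Cdc25c* (0.97). *Cdc25a* was most like *Mcm7* (0.89), a subunit of the replicative helicase. *Cdc25b* was most like *Ccnd1* (0.95), the gene for cyclin D1, with 0.49 after the group means were removed. *Pkmyt1* was most like the splicing factor gene *U2af1* (0.90), *Ccne1* like *Gtf2h3* (0.81) and *Ccnb1* like *Cdc7* (0.68). After the group means were removed, these 10 pairs had *r* between 0.44 (*Pkmyt1* and *U2af1*) and 0.94 (*Ccna2* and *Pcna*), with 0.66 for *Ccne2* and *Pcna*.

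Among the other cell cycle genes of the panel, the replication genes moved in the same direction as most of these 10 genes. The counts of each list stand beside 18.2% lower and 33% higher over all genes. Of 14 replication licensing and fork genes, among which *Prkdc* is better known for DNA repair and did not pass, 11 were lower in lesions past the threshold against control eyes (limma) and none was higher, with a median log2 difference of -1.08. The largest fall was that of *Cdc6*, which loads the replicative helicase, with -1.94 (standard error 0.372, adjusted *p* = 0.00215, limma). Its signal was low, with a mean of 11.6 (SD 5.76) in lesions and 42.8 (SD 5.91) in control eyes. A list of 12 genes of the G1 phase holds G1 cyclins, their kinases and E2F genes and also *Rb1*, *Skp2*, *Myc* and *Mycn*, and 5 of these 12 were lower (*Ccnd1*, *E2f1*, *Mycn*, *Cdk2* and *Skp2*) and 2 higher (*Rb1* and *E2f5*). *Ccnd1* fell most (-2.91, adjusted *p* = 3.48e-06, limma), and *Rb1*, the retinoblastoma gene, rose most (0.45, adjusted *p* = 0.0059, limma). Of 7 CDK inhibitor genes, 2 were lower, with the largest fall in *Cdkn2c* (-1.11, adjusted *p* = 0.000802, limma), and *Cdkn2b* was higher (1.34, adjusted *p* = 0.000168, limma). Of 10 genes for checkpoint kinases, p53 and its regulators or targets, 5 were lower and 1 higher, with the largest fall in *Gadd45a* (-1.81, adjusted *p* = 5.14e-06, limma) and the rise in *Gadd45g* (1.36, adjusted *p* = 1.84e-05, limma), both known as stress-induced genes. A list of 11 genes holds cohesin subunits, the phosphatase genes *Cdc14a* and *Cdc14b*, *Mad2l2* and the SCF ubiquitin ligase genes *Cul1*, *Skp1a* and *Rbx1*. Of these, 3 were higher (*Mad2l2*, *Rbx1* and *Skp1a*) and 2 lower (*Cdc14a* and the cohesin gene *Smc1a*), with the largest rise in *Mad2l2* (1.19, adjusted *p* = 0.000193, limma) and the largest fall in *Cdc14a* (-0.42, adjusted *p* = 0.00233, limma). None of the 3 further cyclins *Ccna1*, *Ccnb3* and *Ccno* passed in this comparison.

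**Figure D5:**
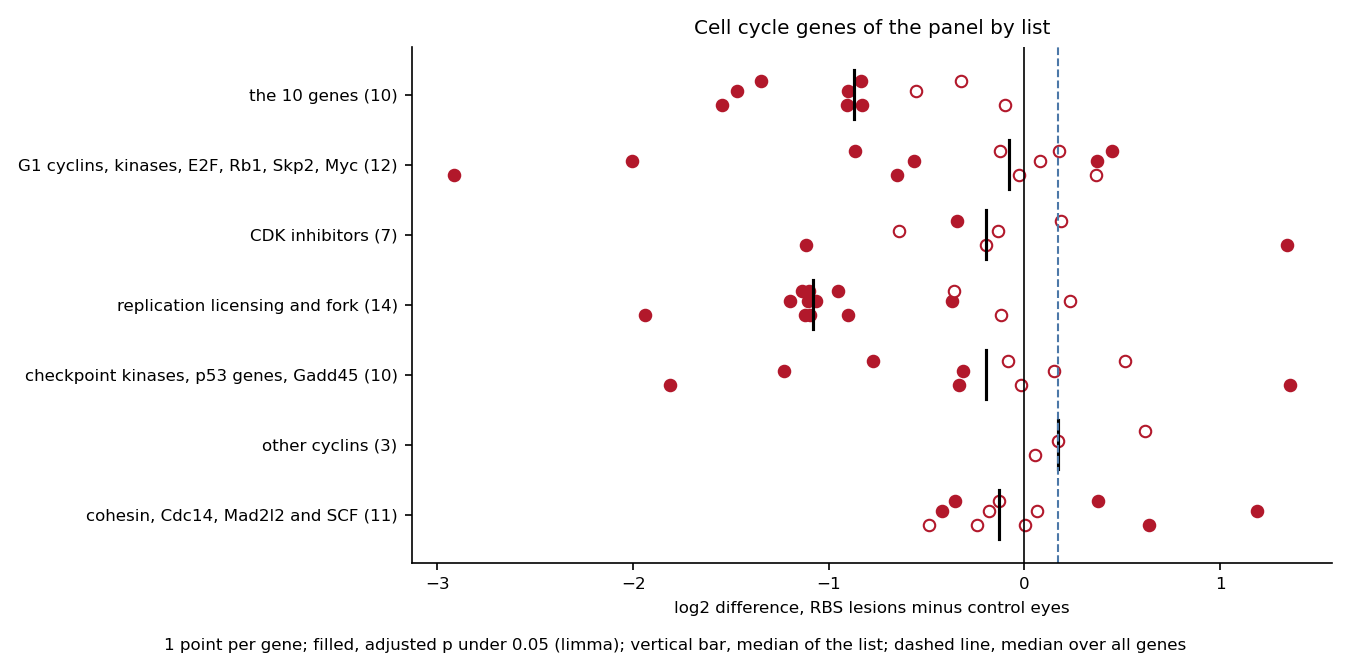
Log2 difference of each gene between *RBS* lesions and control eyes (horizontal axis) by list, with the number of genes on the panel in parentheses, filled points past an adjusted *p* of 0.05 in limma and a vertical bar at the list's median. The 10 genes (median -0.87) and the replication genes (median -1.08) lie mostly below the median of all genes (0.17, dashed line).

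Set against the mean log2 value of the 14 replication genes in the same sample, 9 of the 10 genes fell into 3 sets in the comparison with control eyes. This reading was chosen after the values were seen and carries no test. The replication mean differed by -0.87 between lesions and control eyes. It includes the 3 genes of the list that did not pass, and the list's median difference was lower, at -1.08. The sets rest on this mean alone. Relative to the replication mean, *Cdc25c* (-0.67), *Ttk* (-0.59) and *Ccna2* (-0.47) were lower still in lesions, without overlap of the groups. *Ccne2* (-0.028), *Wee1* (-0.031), *Pkmyt1* (0.038) and *Cdc25b* (0.046) differed as much as the replication mean and overlapped. *Cdc25a* (0.77) and *Ccne1* (0.55) were higher in lesions relative to it, without overlap. *Ccnb1* was put in no set because of its few counts. The sets were not the same against Shh-MBs, where the replication mean differed by -0.96. There *Ttk* (-0.69), *Ccna2* (-0.62), *Cdc25c* (-0.62) and *Ccne2* (-0.39) were lower relative to it in lesions without overlap. *Ccne1* (0.75), *Cdc25a* (0.71), *Cdc25b* (0.68) and *Pkmyt1* (0.58) were higher without overlap, and *Wee1* (-0.23) overlapped. Here too a gene without a change would come out higher, and the share over all genes was not computed.

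Markers of other cell types were read against the shares over all genes, 18.2% lower and 33% higher in lesions than in control eyes. In this comparison 3 of 8 mesenchyme markers and 1 of 3 vessel markers were lower in lesions and none was higher, while 3 of 7 blood and immune markers were higher and none lower. The summed mesenchyme signal was between 19909 and 36506 in lesions, between 25645 and 57961 in control eyes and between 1478 and 2102 in Shh-MBs. For vessel markers these ranges were 695 to 988, 1789 to 2259 and 129 to 235, and for blood and immune markers 234 to 305, 114 to 187 and 146 to 272. Most of the vessel sum is *Kdr*, which encodes a VEGF receptor, with a mean signal of 664 in lesions and 1864 in control eyes, while the median log2 difference of the 3 vessel markers was 0.12. The summed neuron signal in Shh-MBs was between 18465 and 22716. Most of the neuron sum is *Stmn1*, with a mean signal of 30087 in lesions, 20104.5 in control eyes and 19896 in Shh-MBs. Gene by gene, 5 of the 8 neuron markers were higher in Shh-MBs than in control eyes past the threshold and 1 was lower (median log2 difference 0.96). Over all genes 9.61% were higher and 31.4% lower in that comparison. Against Shh-MBs 4 of the 8 were higher in lesions and 1 lower, close to the 48.1% higher and 12.7% lower over all genes. Of these markers, *Il7r* lay at its sample's lowest value in 3 control eyes, 2 Shh-MBs and 1 lesion, and *Grin2a*, a neuron marker, in 1 lesion. The part of these cells in the differences of the 10 genes was not tested.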

How the data were processed

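RNA of 12 murine fresh frozen samples was measured by the authors on the nCounter SPRINT Profiler and normalized in nSolver. From its values, the deposited signal was taken to be linear, with a background level subtracted, a floor for genes without signal above it, and one factor per sample. The counts above background rest on this reading. The background setting and reference genes are not given in the sources used here. Depth was taken as the summed signal over the value of 1 count, and it limits the precision of genes with few counts.

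log2(signal + 1) of all 770 genes was compared between pairs of groups without a filter, using limma 3.58.1 in R 4.3.3 (two-sided, Benjamini-Hochberg over all genes, threshold 0.05). Exact permutation tests used every reassignment of samples to groups. Python 3.11.15 and matplotlib 3.10.9 served for the figures. All 10 genes were named with their values, and from each list the genes with the largest rise and fall past the threshold. For each of the 10, the genes with the highest Pearson *r* were taken. The 10 genes, the lists and the ratios were chosen with earlier results of these data known. Alternatives were a pseudocount of 5, leaving out low genes, median centring, quantile normalization, a Welch *t*-test, other limma settings, a replicate block and leaving out samples. The Welch *t*-test is the kind named in the study's methods, but was run without their permutations. It was adjusted by Benjamini-Hochberg or by step-down Bonferroni. A floor of 20 and a total without the 3 most abundant genes were added after seeing the data. Samples with the same replicate number did not deviate together, so the numbers were not used as pairs.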

Additional observations from a re-analysis of the deposited data

Results flagged for a closer look

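Among 20 combinations of the 10 genes with the control eyes or the *RBS* lesions, 1 sample lay far from the rest of its group, where chance gives about 1 in 20. This was *Ttk* in control 2, with a signal of 257.8 against 217 in the next control eye. The gap took 0.861 of the range of the 4 control eyes. Without control 2 the log2 difference of *Ttk* between *RBS* lesions and control eyes was -1.40 (adjusted *p* = 0.000186, limma), and that between Shh-MBs and control eyes was 0.25 (adjusted *p* = 0.136, limma).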

How the results depend on the processing

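Of 20 alternatives for *RBS* lesions against control eyes, 1 changed the number of the 10 genes past the threshold by more than 1.5 times. This was the Welch *t*-test with step-down Bonferroni adjustment (4 of the 10, *Ccna2*, *Cdc25b*, *Ttk* and *Wee1*, and 72 genes of the panel). Median centring and quantile normalization gave 9. The step-down adjustment gave 3 of the 10 (*Ccna2*, *Ttk* and *Wee1*) and 80 genes against Shh-MBs. It gave 0 of the 10 and 36 genes for Shh-MBs against control eyes. Against Shh-MBs, median centring and quantile normalization gave 10. The shares of all genes that passed under other scalings are not given beside these counts. For Shh-MBs against control eyes, 4 passed with low genes left out, 8 with median centring, 7 with quantile normalization, 5 with the total without the 3 most abundant genes and 0 with the replicate block. The block gave 7 and 5 of the 10 genes in the comparisons of *RBS* lesions. Samples with the same number correlated between -0.15 and 0.19 in their deviations. Leaving out 1 sample gave 7 of the 10 throughout against control eyes, 5 to 7 against Shh-MBs and 2 to 3 for Shh-MBs against control eyes. Over all genes it gave 350 to 392, 423 to 478 and 250 to 313. The count of ratios against Shh-MBs was 0 to 6, and 0 came whenever 1 of the 3 Shh-MBs was left out, where the smallest *p* that 5 against 2 samples allow became an adjusted *p* of 0.0635 (exact permutation). Signs changed for Shh-MBs against control eyes in *Ccne1* (0.55 with median centring, 0.48 with quantile normalization, 0.20 with the total without the 3 most abundant genes), *Cdc25b* (0.11 with median centring) and *Pkmyt1* (0.21 and 0.30 with the first of these). When 1 sample was left out, signs changed in *Ccnb1* (-0.033 to 0.55), *Cdc25c* (-0.024 to 0.0699) and the ratio of *Ccna2* to *Ccnb1* (-0.38 to 0.26), all for Shh-MBs against control eyes. The same held for *Pkmyt1* to *Wee1* in lesions against control eyes (-0.0079 to 0.18) and *Cdc25a* to *Cdc25b* in lesions against Shh-MBs (-0.020 to 0.084). None of these was past the threshold as deposited except *Cdc25b*. Among genes that differed, 64.5% were higher in lesions than in control eyes, 50.0% with median centring and 50.8% with quantile normalization. Against Shh-MBs this share was 46.2% with quantile normalization and 62.5% with the total without the 3 most abundant genes, and for Shh-MBs against control eyes 59.9% and 47.5%. *Ccnb1* has no value with low genes left out or with values under 20 set to 20. The causes were not tested.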

Other observations

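Some cell cycle genes of the panel were higher in *RBS* lesions while most of the cyclin and mitotic entry genes were lower. *Gadd45g* had a signal of 177 ± 18.2 (SD, *n* = 5) in lesions, 68.4 ± 6.81 (SD, *n* = 4) in control eyes and 97.4 ± 21.2 (SD, *n* = 3) in Shh-MBs. *Mad2l2*, which encodes a subunit of the translesion polymerase zeta, was 253 ± 41.1 (SD, *n* = 5) in lesions and 110.3 ± 15.5 (SD, *n* = 4) in control eyes, and at 315 ± 83.9 (SD, *n* = 3) it was also high in Shh-MBs. *Cdkn2b*, the gene for the CDK inhibitor p15, was 26.4 ± 5.37 (SD, *n* = 5) in lesions and 9.67 ± 1.40 (SD, *n* = 4) in control eyes.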
